A study of Rattus norvegicus with 42 samples.

Results

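GH4C1 is an established rat cell line of the pituitary lineage that makes growth hormone and prolactin. The comparison described here sets GH4C1 cells labelled Neat1 -/-, made with CRISPR-Cas9 and called KO, against GH4C1 cells labelled wild type and given no treatment, called WT, both harvested 22 h after fresh medium was added to synchronise the cultures. It uses 6 of the 42 libraries of the series, 3 of KO and 3 of WT, which were picked out by their labels. The time of 22 h was chosen with earlier results of these data known, among them that its replicates were tight. The series as a whole sampled both genotypes at 7 times, with 3 replicates each, to ask how the loss of Neat1 changes rhythmic gene expression.

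Neat1 is a long non-coding RNA of the nucleus. It is the scaffold on which paraspeckles assemble, nuclear bodies that hold RNA-binding proteins such as SFPQ and NONO and that can retain edited or repeat-containing transcripts. In pituitary cells paraspeckles have been linked to the daily rhythm of transcripts after their synthesis. A cell line that lacks Neat1 is therefore a way to ask which transcript levels change when these bodies cannot form.

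What the groups can show as a model has limits. The labels name no CRISPR-Cas9 control among the WT cells, and do not say whether the KO cells are 1 clone or a pool, nor whether the 3 replicates are separate cultures. The counts of KO and of WT were deposited separately. The deletion and any other difference between the KO and WT cells, or in how their libraries were made and sequenced, cannot be told apart. The p-values measure the spread between these libraries, which may be technical. Genes are listed by Ensembl identifiers, and 0 of 13776 could be matched to a symbol. The level of Neat1 was therefore not analysed here, the genotypes are used as labelled with no check on the deleted gene, and no pituitary marker was checked.

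The WT libraries held 43988857, 44332713 and 36152480 counts, and the KO libraries held 57120567, 60482227 and 49049410. Replicates were tight in both groups, which was known when this time was chosen. Over genes, the correlation of log2 CPM (the count of a gene relative to the counts of its library) was 0.992 to 0.993 in the 6 pairs of libraries from one group, and 169 to 210 genes differed by at least 2-fold. Between a KO and a WT library the correlation was 0.924 to 0.928 in 9 pairs, and 2779 to 3118 genes differed by at least 2-fold. In pairs of one group a chi-square test of the counts gave 6.12 or more for each degree of freedom, so no 2 libraries agreed within counting noise. KO and WT separated on the first principal component, which took 88.0% of the variance. The second held 3.43%, and KO replicate 3 lay at 21.1 on it against -12.2 and -8.99 for the other KO libraries. The number of genes called without that library is given for KO against WT at 22 h and for the difference between times.

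A pair of genes took much of the counts of the KO libraries. ENSRNOG00000043866 held 17.0%, 17.9% and 17.6% of the counts in the KO libraries and 0.0334%, 0.0265% and 0.0274% in the WT libraries. ENSRNOG00000030478 held 1.94%, 2.07% and 2.06% in KO and 0.00768%, 0.0069% and 0.0084% in WT. Because these shares press down every other gene when libraries are scaled by their totals, both genes were left out when library sizes and scaling factors were computed. CPM below is thus relative to the counts of the other genes, after TMM scaling (trimmed mean of M values, a factor that assumes most genes do not move on average). Both genes were still tested.

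On that scale ENSRNOG00000043866 stood at 331, 267 and 275 CPM in the WT libraries and at 207944, 222879 and 221199 CPM in the KO libraries. Its level was 291 ± 35 CPM in WT and 217341 ± 8181 CPM in KO (SD, n = 3 each), which by edgeR is 9.54 on the log2 scale (SE 0.09, adjusted p 1.1e-14). ENSRNOG00000030478 stood at 76.2, 69.6 and 84.3 CPM in WT and at 23769, 25772 and 25925 CPM in KO. Its log2 fold change was 8.36 (SE 0.08, adjusted p 1.1e-14 by edgeR). All 3 KO libraries lay far above all 3 WT libraries for both genes, and the libraries of each group were close to each other. The first gene had 4.35, 3.84 and 3.26 times the counts of the second in the WT libraries and 8.75, 8.65 and 8.53 times in the KO libraries, so the ratio of the pair also did not overlap between groups. The difference in ratio was not tested. Scaled over all 42 libraries, the 3 WT libraries of ENSRNOG00000043866 spanned 266 to 331 CPM at 22 h, much as at 18 h (256 to 309 CPM) and 26 h (253 to 308 CPM). They spanned 277 to 542 CPM at 10 h, 254 to 378 CPM at 14 h, 305 to 1810 CPM at 30 h and 443 to 2369 CPM at 34 h, while the 3 KO libraries spanned 188678 to 233009 CPM at 34 h.

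The difference between the genotypes at 22 h was broad. Of 13776 genes, 10852 (78.8%) were called by edgeR's quasi-likelihood test at a Benjamini-Hochberg adjusted p under 0.05, 5427 (39.4%) higher and 5425 (39.4%) lower in KO. In 11116 genes (80.7%) the 3 KO and the 3 WT libraries did not overlap. The biological coefficient of variation in the fit, which is the spread between replicates beyond counting noise, was 0.077, so that small differences could be called. The median SE of a log2 fold change was 0.066. Each SE was taken as the absolute log2 fold change divided by the square root of the F statistic of the test. Of the 2924 genes not called, 2037 (69.7%) had a 95% interval of the fold change that lay within 1.5-fold in either direction, and 2608 (89.2%) had one within 2-fold. The calls were made with a library apart on the second component included, and without KO replicate 3 there were 10613 of them.

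Most of the called differences were modest. The median absolute log2 fold change over all genes was 0.50, and the middle of the distribution ran from -0.45 to 0.56 between its 25th and 75th percentiles. Of the called genes, 2806 (20.4% of those tested) differed by 2-fold or more, and 4-fold was reached by 411 higher and 159 lower genes, and 8-fold by 88 higher and 57 lower genes. Of the 2806 genes, 2775 had KO and WT libraries that did not overlap.

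**Figure D1:**
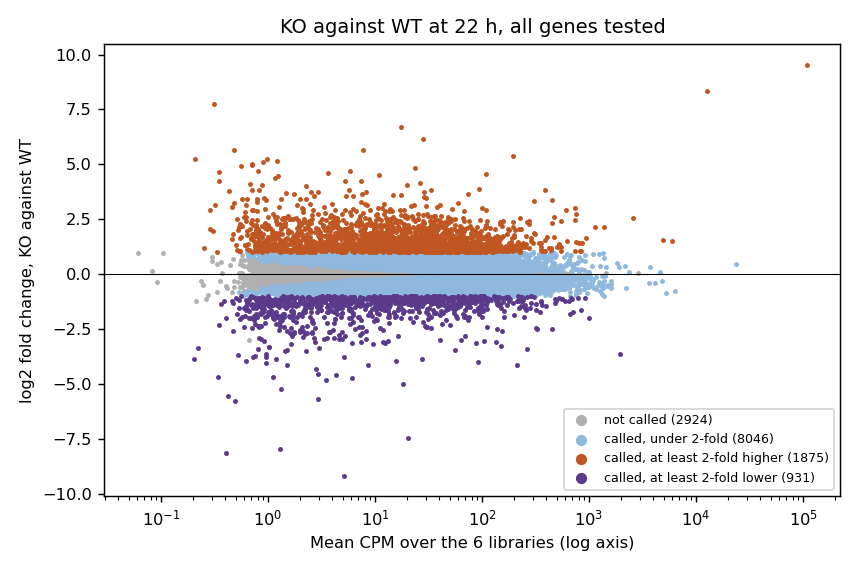
Each point is 1 of 13776 genes, with its mean CPM over the 6 libraries on a log axis and its log2 fold change of KO against WT at 22 h on the vertical axis; colours give the call. The 1875 genes called at least 2-fold higher outnumber the 931 called at least 2-fold lower, and ENSRNOG00000043866 and ENSRNOG00000030478 lie alone at the upper right.

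Direction and size went together. Although calls were even in number, 1875 genes (13.6% of those tested) were at least 2-fold higher and 931 (6.76%) at least 2-fold lower, so that 66.8% of the larger changes were gains in KO. The median log2 fold change was 0.73 among genes called higher and -0.55 among genes called lower. Of the genes called higher 34.5% reached 2-fold, against 17.2% of those called lower. The small changes leaned the other way. With an absolute log2 fold change of 0.25 to 0.5, 1188 called genes were higher and 1602 lower, and from 0.5 to 1, 1767 were higher and 2099 lower. From 1 to 2 the order turned, with 1464 higher and 772 lower, and from 2 to 3 there were 323 higher and 102 lower. Called genes with changes under 2-fold were thus more often lower in KO, and those with larger changes more often higher. These directions are relative to a scale on which the median gene moved by -0.012 on the log2 scale. With library totals of all genes, including the pair above, the median moved to -0.32 and 31.9% of called genes and 36.7% of those with 2-fold change were higher in KO. With TMM scaling over all listed genes, the pair included, the median was -0.0076. On that scale 50.3% of called genes and 67.2% of those with 2-fold change were higher in KO, near the main values.

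Some of the genes with the largest fold changes showed near switches in level, while others were well above 0 CPM in both groups. The naming rule took called genes with at least 10 CPM in the higher group and no overlap between groups, and 8504 genes met it, 4210 higher and 4294 lower in KO. The 12 highest and 12 lowest of these were examined by library. Beyond the pair above, the third highest stood at 0.248, 0.341 and 0.416 CPM in WT and at 33.1, 27.2 and 44.5 CPM in KO, a log2 fold change of 6.71 (SE 0.24). The fourth stood at 0.79, 0.819 and 0.694 CPM in WT and at 54.8, 57.4 and 52.7 CPM in KO. The sixth was a gene of middling level in WT, at 8.98, 8.57 and 10.3 CPM, that rose to 373, 384 and 390 CPM in KO. The fourth and sixth genes were even within each group, while the libraries of the third spread more widely in both. The fifth was uneven in KO, where it stood at 0.471, 0.577 and 44.1 CPM against 0.248, 0.318 and 0.333 CPM in WT. Its log2 fold change was 5.63 (SE 1.59, adjusted p 0.00647 by edgeR), and KO replicate 3 was the one library far above WT. Its mean of 15.1 CPM in KO met the naming rule through that library only. The 11th was also uneven, at 4.77, 12.3 and 25 CPM in KO against 0.745, 0.796 and 0.666 CPM in WT.

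Among the genes that fell, ENSRNOG00000055557 stood at 10.3, 9.39 and 11.2 CPM in WT, and it had 0, 2 and 0 counts in the KO libraries. Over the summed counts, 1274 in WT and 2 in KO, WT was 688 times higher with a 95% counting interval of 190 to 5690, which covers counting error only. ENSRNOG00000001571 stood at 43.1, 39.8 and 37.8 CPM in WT and at 0.193, 0.226 and 0.256 CPM in KO, which by edgeR is -7.47 on the log2 scale (SE 0.12, adjusted p 6.85e-13). Its KO libraries held 9, 11 and 10 counts, and with so few the SE, taken from the F statistic, can be too small. The WT level of this gene was 40.2 ± 2.68 CPM and the KO level 0.225 ± 0.0319 CPM (SD, n = 3 each), so a gene well above the background in all WT libraries was near 0 in all KO libraries. The third lowest was at 35.5 ± 1 CPM in WT and 1.11 ± 0.0847 CPM in KO (SD, n = 3 each). Falls were not limited to genes of low level. The sixth lowest was at 406, 398 and 397 CPM in WT and at 23.6, 21.1 and 23.2 CPM in KO. The 10th lowest was at 3692, 3646 and 3516 CPM in WT and at 283, 289 and 306 CPM in KO, a log2 fold change of -3.63 (SE 0.04). Among all genes tested, 8 had a mean under 1 CPM in WT and at least 10 CPM in KO, and 4 had the reverse. The 8 include the fifth highest gene, which reached 10 CPM in KO through replicate 3 only.

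**Figure D2:**
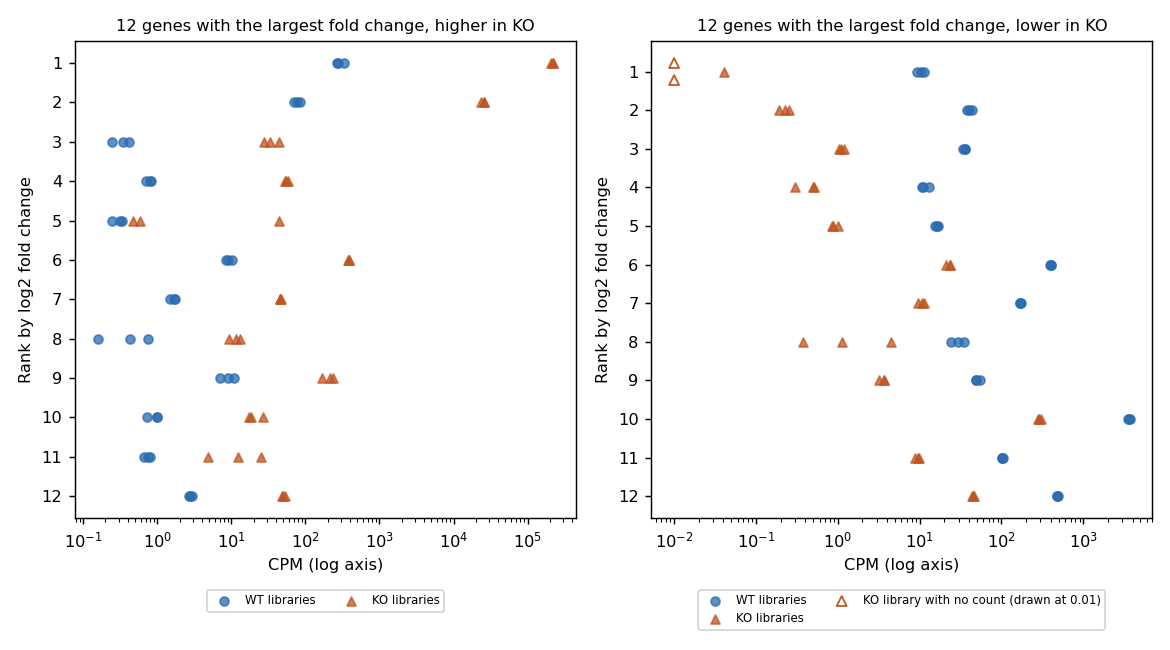
CPM of each library on a log axis for the 12 genes with the highest (left) and lowest (right) log2 fold change among those that met the naming rule, by rank; circles are the 3 WT libraries and triangles the 3 KO libraries, and open triangles mark KO libraries with no count. Ranks 1 and 2 on the left are ENSRNOG00000043866 and ENSRNOG00000030478, ranks 1 and 2 on the right are ENSRNOG00000055557 and ENSRNOG00000001571, and rank 5 on the left has 1 KO library at 44.1 CPM with the other 2 near WT.

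The size of the difference depended on how abundant a gene was. Genes were put in 7 classes by their mean CPM over the 6 libraries, which favours neither group. The median absolute log2 fold change was 0.89 in the 565 genes under 1 CPM, 0.65 from 1 to 3 CPM, 0.59 from 3 to 10 CPM and 0.50 from 10 to 30 CPM. It was 0.44 from 30 to 100 CPM, 0.42 from 100 to 300 CPM and 0.45 in the 530 genes of 300 CPM and over. Size thus fell with abundance up to about 30 CPM and was level above it. Over genes, which are not independent, the Spearman correlation of the absolute log2 fold change with mean CPM was -0.18 (n = 13776). It was also -0.18 when abundance was taken from the 18 h libraries, which do not enter the fold change. Those libraries hold the same listed genes and a similar KO effect, so this is no independent check. Both values are over all genes, with the rare ones whose listing is described below.

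Counting noise makes rare genes differ more between any 2 libraries, so the same measure was taken between pairs of libraries. Under 1 CPM the median absolute log2 difference was 0.92 between a KO and a WT library and 0.41 between 2 libraries of one group. From 10 to 30 CPM it was 0.51 against 0.09, and at 300 CPM and over 0.44 against 0.05. The difference between genotypes was 2.2 times the replicate difference in the rarest class and 8.8 times in the most abundant one. The larger fold changes of rare genes were thus accompanied by a larger spread, and abundant genes, with smaller fold changes, were separated more cleanly. The share of genes called followed this, from 54.7% under 1 CPM and 58.2% from 1 to 3 CPM to 79.8% from 10 to 30 CPM and 89.1% at 300 CPM and over.

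How the table was filled bears on the rare genes. Over the 14 groups of the series, no gene in the table had a highest group mean below 50.3 counts. From 1 to 3 CPM, 242 of 1463 genes had a mean under 50 counts in KO alone at 22 h and 344 in WT alone, so the place of some rare genes in the table can rest on one genotype being high. Their differences are given as a description only. Under 1 CPM, 399 of 565 genes had a mean under 50 counts in both groups at 22 h. From 3 to 10 CPM such genes were few, 12 with a low mean in KO alone and 23 in WT alone, and the classes above 3 CPM carry the comparison.

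Direction also changed along abundance. KO was the higher side in 56.2% of called genes from 3 to 10 CPM, 55.8% from 10 to 30 CPM, 48.5% from 30 to 100 CPM, 41.6% from 100 to 300 CPM and 35.6% at 300 CPM and over. The median log2 fold change moved with it, from 0.08 and 0.07 in the classes from 3 to 30 CPM to -0.12 from 100 to 300 CPM and -0.17 at 300 CPM and over. Moderately expressed genes were thus slightly higher and abundant genes slightly lower in KO relative to all genes. With library totals of all genes these medians were -0.23, -0.24, -0.43 and -0.48, all lower, and the most abundant class was again the lowest. Changes of at least 2-fold did not follow the medians. Gains outnumbered losses in every class, by 369 to 187 from 3 to 10 CPM, 491 to 164 from 10 to 30 CPM, 442 to 180 from 30 to 100 CPM, 146 to 79 from 100 to 300 CPM and 46 to 28 at 300 CPM and over. That order was reversed in each class with library totals of all genes, for example 314 to 377 from 10 to 30 CPM.

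**Figure D3:**
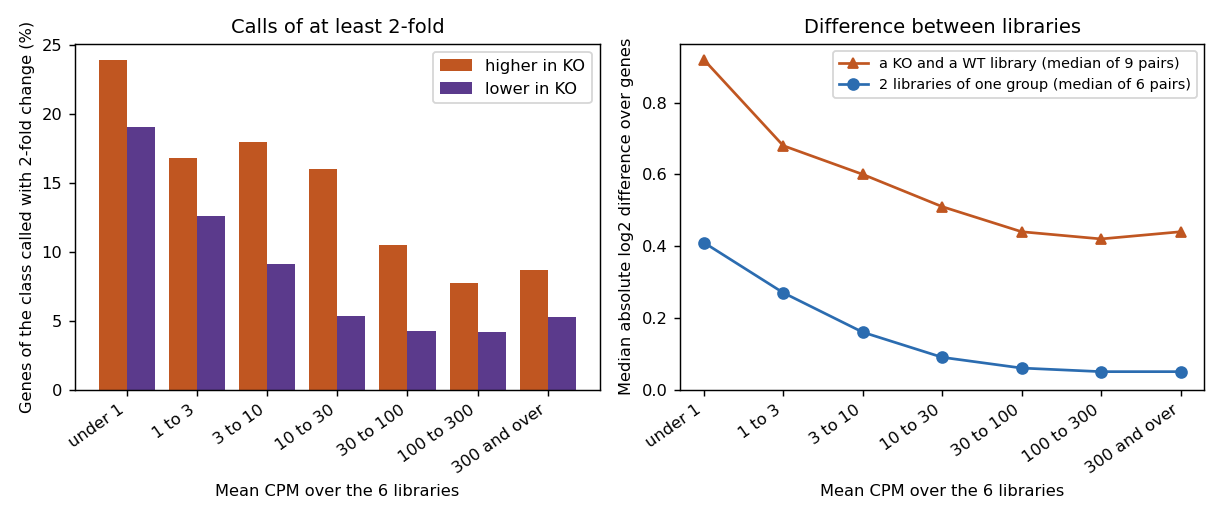
Left, the percent of genes in each class of mean CPM that were called with at least 2-fold change, higher or lower in KO; right, the median absolute log2 difference over genes between a KO and a WT library and between 2 libraries of one group. The share of 2-fold gains was highest at 23.9% under 1 CPM and fell to 7.72% from 100 to 300 CPM, while the difference between 2 libraries of one group fell from 0.41 to 0.05.

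The most abundant genes were looked at on their own. Of the 100 genes with the highest level in either group, leaving out ENSRNOG00000043866 and ENSRNOG00000030478, 97 were called, 36 higher and 61 lower in KO, and their median log2 fold change was -0.32. Over all genes 78.8% were called, 39.4% higher and 39.4% lower, and at 300 CPM and over 89.1% were called. At least 2-fold change was found for 16 higher and 7 lower of the 100 genes, against 13.6% and 6.76% of all genes. The most abundant gene called higher was at 17100, 21538 and 21414 CPM in WT and at 28390, 26221 and 27342 CPM in KO, a log2 fold change of 0.45 (SE 0.07). The second was at 3510, 2881 and 2819 CPM in WT and at 8324, 8876 and 9223 CPM in KO, and the fifth at 846, 707 and 712 CPM in WT and at 4103, 4362 and 4621 CPM in KO. The most abundant gene called lower was at 7454, 8520 and 8118 CPM in WT and at 5046, 4568 and 4367 CPM in KO, a log2 fold change of -0.79 (SE 0.05). The KO and WT libraries did not overlap for any of these 4 genes. Among these 100 genes, gains were thus fewer than losses, although the 10th lowest gene above, at 3618 CPM in WT, changed by more than any of these 3 gains.

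Differences in share were added up to see how much of the library they amounted to. Without the pair of genes left out of scaling, 18.7% of the counts sat on other genes in KO than in WT, as the sum of all gains in mean share. The same sum was 18.5% to 19.3% between single KO and WT libraries and 1.88% to 2.96% between 2 libraries of one group. The 10 largest gains made up 15.6% of the gained share and the 10 largest losses 9.07% of the lost share, so the shift was spread over many genes. Genes of 100 CPM and over held 72.0% of the lost share and 63.9% of the gained share.

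The comparison was then set beside KO against WT at 18 and 26 h, which were measured in other libraries of the same cells and share no sample with it. In separate fits of 6 libraries each, 10208 genes (74.1%) were called at 18 h and 10776 (78.2%) at 26 h. Of the 1875 genes at least 2-fold higher at 22 h, 1828 (97.5%) were called in the same direction at 18 h and 1824 (97.3%) at 26 h. Of the 931 genes at least 2-fold lower, 886 (95.2%) and 884 (95%) were. Genes picked at 22 h for a large change were nearly as far apart at the other times, with a median log2 fold change of 1.44 at 22 h, 1.38 at 18 h and 1.43 at 26 h for the gains, and -1.34, -1.28 and -1.30 for the losses. A call in the opposite direction was found for 2 of the gains at each time, and for 1 of the losses at 18 h and 0 at 26 h.

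Small differences also recurred. Of the 1390 genes called at 22 h with an absolute log2 fold change under 0.25, 97.1% had the same sign at 18 h and 92.5% at 26 h, and 61.0% and 72.4% were called there in the same direction. Of the 2924 genes not called at 22 h, 74.7% and 70.1% had the same sign, and 18.5% and 26.3% were called in that direction. Called genes with small changes thus lay well above the genes not called in how often they recurred. The 2 sets were not matched for abundance, and rare genes were called less often (54.7% under 1 CPM, 89.1% at 300 CPM and over). How much of the gap goes with abundance was not tested. Over all genes the Pearson correlation of the log2 fold change at 22 h with that at 18 h was 0.951 and with that at 26 h 0.947 (n = 13776 genes, which are not independent replicates). In all, 2665 of the 2806 genes with 2-fold change at 22 h (95%) were called in the same direction at both times, 1799 higher and 866 lower. Of the other 141 genes, 108 had a mean under 3 CPM.

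**Figure D4:**
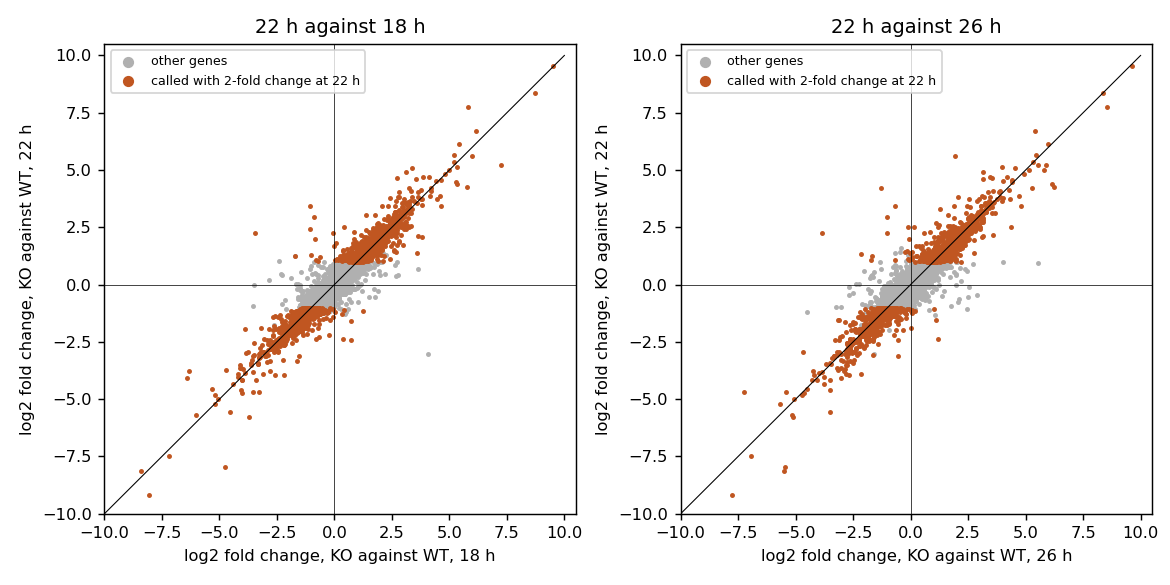
log2 fold change of KO against WT at 22 h (vertical) against that at 18 h (left) and 26 h (right), 1 point per gene of 13776; genes called with at least 2-fold change at 22 h are coloured and the diagonal marks equal values. The points lie along the diagonal, with correlations over genes of 0.951 and 0.947.

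The 4 genes named above were called in the same direction at both times. The log2 fold change of ENSRNOG00000043866 was 9.49 at 18 h and 9.64 at 26 h, and that of ENSRNOG00000030478 8.71 and 8.35. ENSRNOG00000001571 was at -7.18 and -6.92. ENSRNOG00000055557 was at -8.05 and -7.75 against -9.18 at 22 h, but with 2 counts in KO at 22 h that fitted value depends on the prior count and on single libraries, and it was -11.8 without KO replicate 2 and -8.64 without KO replicate 1. Of the uneven genes, the fifth highest was at 6 and 1.94, both called. The 11th highest gene, with 4.77 to 25 CPM in the KO libraries at 22 h, had a log2 fold change of 3.25 at 18 h, which was called, and -1.30 at 26 h, which was not (adjusted p 0.162 by edgeR).

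Whether the KO effect at 22 h differed from that at other times was tested directly, as KO minus WT at 22 h minus the mean of KO minus WT at 10, 14, 18, 26 and 30 h, in 36 libraries. The difference was called by edgeR for 205 genes (1.49%), 104 (0.755%) higher and 101 (0.733%) lower. The unadjusted p was under 0.05 for 1994 genes. With any 1 of the 6 libraries of 22 h left out, the number called fell to between 56 (without KO replicate 3) and 96 (without KO replicate 2). All 205 genes kept the sign of their difference, but they were chosen on these same libraries, so that is no independent support. Called differences were small, with a median of 0.30 on the log2 scale, and 22 of them reached 1.5-fold. Of the 2806 genes with 2-fold change at 22 h, 1.60% were among the 205, a share near that of all genes. The sign of the effect at 22 h was opposite to the mean of the other times in 21 of the 186 genes that were also called for KO against WT at 22 h. When 22 h was set against 18 and 26 h only, in 18 libraries, 1 gene was called by edgeR, which was not among the 205, and the unadjusted p was under 0.05 for 857 genes. A difference between 22 h and its neighbouring times was thus not shown beyond this 1 gene.

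The change at 22 h within each genotype is given as a description, since the 205 genes were chosen on these libraries. Relative to the mean of the other 5 times in the same genotype, the median absolute log2 change at 22 h was 0.19 in WT and 0.11 in KO over the 205 genes, and it was 0.07 and 0.06 over all genes. In 56 of the 205 (27.3%) the change was larger in KO than in WT, as it was in 48.4% of all genes, and the difference between these shares was not tested. Among the genes called for the difference with at least 10 CPM in the higher group, the largest positive difference was in a gene at 19.7, 17.9 and 17.3 CPM in WT and 13.1, 13.3 and 14.1 CPM in KO at 22 h. The mean log2 fold change of this gene was -1.53 over the other 5 times and -0.44 at 22 h, a difference of 1.10 (SE 0.10, adjusted p 1.53e-08 by edgeR), and its mean level at those times was 40.6 CPM in WT and 14 CPM in KO. Its log2 fold change was -1 at 18 h and -0.34 at 26 h, so the value at 22 h lay between those of the neighbouring times. The second was at 148, 130 and 146 CPM in WT and 1045, 1072 and 1078 CPM in KO, with a log2 fold change of 2.91 at 22 h against a mean of 2.05 at the other times, where it stood at 237 CPM in WT and 973 CPM in KO on average. This second gene too lay between its neighbouring times, at 2.33 at 18 h and 3.13 at 26 h. In both genes, the WT level at 22 h was further from its mean at the other times than the KO level was. These 2 genes were singled out for the size of their difference.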

How the data were processed

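RNA was sequenced as strand-specific paired reads, per the labels' protocols, and the authors deposited whole-number counts per gene, made with featureCounts per the submitters' processing notes. The aligner, genome build, annotation, strand setting and rule for listing genes are not given in the sources used here. Overlapping genes and near-identical copies are therefore uncertain.

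The WT and KO count tables were joined on the Ensembl identifier (13776 genes) and groups were taken from the labels. None of the identifiers (0 of 13776) matched a symbol, so the gene lists, cell markers and Neat1 were not analysed here. The condition of the naming rule that a gene has a symbol was dropped, and at most 2 identifiers that rose and 2 that fell are printed. Ranked genes had a mean of at least 10 CPM in the higher group and groups that did not overlap. The members, lists and tests were chosen with earlier results of these data known.

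Counts were tested with the quasi-likelihood F test of edgeR 4.0.16 in R 4.3.3, with Benjamini-Hochberg adjustment over all genes. An SE was the absolute log2 fold change divided by the square root of F, and the 95% intervals used it. It can be too small for a gene with a large fold change and few counts in KO or in WT. TMM factors and library sizes left out ENSRNOG00000043866 and ENSRNOG00000030478, and no further filter was used. Only the 6 libraries entered the comparison at 22 h. The test of the difference between times used 36 libraries and left out 34 h, where 1 WT library was known to stand apart. Libraries of 10 and 30 h were kept, though there too 1 WT library lay above the others for ENSRNOG00000030478. It stood at 301 CPM at 10 h (others 63.9 and 68.5 CPM) and at 1303 CPM at 30 h (others 81.9 and 95.4 CPM). Named genes that are printed without an identifier are given by rank. Alternatives were other scalings, DESeq2 1.42.0, filters on low counts, a minimum change of 1.5-fold, all 42 libraries, a replicate block and leaving out each library. In simulated data with 200 changed genes of 13776, 65.0% were recovered at a log2 change of 0.5 and 89.5% at 1 for the comparison at 22 h, with 16 and 14 false calls. The false calls were a larger share of the simulated calls than the 0.05 aimed at. Far fewer genes changed there than the 78.8% called in the real comparison, which makes the adjusted threshold stricter. The recovered shares therefore do not give the sensitivity of the real comparison. The counting interval covers counting error only.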

Additional observations from a re-analysis of the deposited data

Results flagged for a closer look

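The effect of KO at 22 h differed from its mean at 10, 14, 18, 26 and 30 h in 205 genes by edgeR's test of the difference itself, 1.49% of those tested. The difference was positive in 104 genes (0.755%) and negative in 101 (0.733%), and 6 genes, all positive, differed by at least 2-fold. Among those of the 205 genes with at least 10 CPM in the higher group, the 2 most negative differences were in a gene at 32.9, 32.4 and 31.3 CPM in WT and 14.5, 16.0 and 14.8 CPM in KO at 22 h, and in one at 29.8, 25.5 and 29.2 CPM in WT and 8.05, 8.81 and 7.56 CPM in KO. The first had a log2 fold change of -1.09 at 22 h against a mean of -0.43 at the other times, and the second -1.79 against -1.15. At 18 and 26 h the first was at -0.91 and -0.82, and the second at -1.5 and -1.78, closer to 22 h than those means. The share of genes called for the difference was 0.177% under 1 CPM, 1.24% from 10 to 30 CPM and 2.64% at 300 CPM and over.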

How the results depend on the processing

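Of 186 values recomputed for 12 results, 163 stayed within the limits set for no change and 23 moved. For counts of genes the limit was 1.5-fold, so 9712 called genes with all 42 libraries stayed within it. For percents the limit was a binomial 95% interval, which treats genes as independent. A reversal was looked for only in the 4 named genes, which made up 63 of the 186 values. Direction and call of these genes held in all 63, though the fold change of ENSRNOG00000055557 ran on the log2 scale from -8.64 to -11.8 with 1 library left out. With library totals of all genes, 31.9% of called genes and 36.7% of those with 2-fold change were higher in KO, so losses then outnumbered gains. On that scale all genes together had a median log2 fold change of -0.32. The median absolute log2 fold change of the most abundant class was 0.625 against 0.447. With TMM over all listed genes the directions stayed, with 50.3% of called genes and 67.2% of those with 2-fold change higher. With genes of at least 10 CPM only, 1576 genes had 2-fold change, 48.6% of called genes were higher and 71.4% of those with 2-fold change were higher, with fewer genes tested. Against a minimum change of 1.5-fold, 4408 genes were called and 59.4% of them were higher. With abundance from the 18 h libraries the most abundant class had a median of 0.427. DESeq2 called 10700 genes, of which 10643 were shared, and gave no adjusted p for 12.

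Leaving out 1 library at a time gave 10397 to 10613 called genes, 2753 to 2924 with 2-fold change (66.1% to 67.5% higher), 50.1% to 51.0% of called genes higher, and medians of 0.842 to 0.930 in the rarest class and 0.434 to 0.447 in the most abundant one. The 205 genes with a differing effect at 22 h became 56 to 96, 1 against 18 and 26 h only, and 175 with all 42 libraries, of which 95 were among the 205. The cause was not tested. Same-numbered replicates deviated from their group means with correlations of -0.06, 0 and -0.03, so no effect shared by replicate number was seen. These values cannot tell whether same-numbered replicates were handled together. The replicate block gave 10706 called genes, 2814 with 2-fold change and 204 with a differing effect. The gene lists were not run, for want of symbols, and the rarest class had no value under the filters of 10 CPM and 50 counts. Depth limits the genes under 3 CPM, where replicates differed by a median of 0.27 or more.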

Other observations

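Single libraries that stood apart for a gene were few at 22 h. Among the 9398 genes of at least 10 CPM in WT, 8, 5 and 4 genes were more than 2-fold above both other WT libraries in replicates 1, 2 and 3, and 4, 3 and 4 were that far below. Among the 9741 such genes in KO, 5, 1 and 8 were above and 3, 4 and 1 below. The median SD of log2 CPM within a group was 0.076 in WT and 0.069 in KO.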
